A study of Mus musculus with 2 samples.

Results

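The genes described here are *Tlr1*, *Tlr2*, *Tlr3*, *Tlr4*, *Tlr6*, *Tlr7*, *Tlr8*, *Tlr9* and *Tlr13*, which encode mouse Toll-like receptors (TLRs), and *Cd14*, which encodes a co-receptor of several of them. They were chosen by name, with earlier results of these data known, and are 10 of the 54532 gene identifiers in the count table. The gene symbols were taken from GENCODE M21. All 10 passed the filter of at least 10 counts over both libraries, and the lowest count of any of them was 237, for *Tlr1* in WT.

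The study asked how M1-like macrophages differ between wild type (WT) mice and mice in which *Folr2*, the gene of folate receptor β (FRβ), is disrupted. Bone marrow cells of male C57BL/6 mice were cultured for 7 days with 20 ng/mL M-CSF, the growth factor that drives macrophage differentiation, and were then polarised over 24 hours with IFNγ (20 ng/mL) and LPS (1 ng/mL). Both genotypes received the same treatment, so every cell measured here had been exposed to the ligand of TLR4, and no untreated library was analysed. The FRβ KO allele carries a neomycin resistance gene inserted in *Folr2* and came from mice of SWV background crossed to C57BL/6. By the methods, WT mice were purchased, while FRβ KO mice were bred at the authors' own facility. Genotype and source of the mice therefore cannot be told apart here. The RNA of 3 mice was pooled per genotype. Each genotype therefore has 1 library, the spread between mice is unknown and no p-value is given.

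TLRs are pattern recognition receptors that bind microbial molecules and signal through adaptor proteins to NF-κB, MAP kinases and interferon regulatory factors. TLR4 and the TLR2 heterodimers with TLR1 or TLR6 sit at the cell surface and recognise LPS and bacterial lipopeptides, with CD14 passing these ligands on to them. TLR3, TLR7, TLR8, TLR9 and TLR13 lie in endosomes and recognise nucleic acids, and they depend on the chaperone UNC93B1 to get there. Macrophages are among the main TLR-bearing cells.

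The WT library held 18871271 counts and the FRβ KO library 19742619. Each KO/WT ratio was taken after TMM scaling, in which the FRβ KO library was 1.07 times the size of WT, and has an exact 95% interval from the pair of counts that covers counting error only. *Folr2* had 0 WT and 2 FRβ KO counts, so its level cannot serve as a check of the genotype labels. The macrophage markers *Csf1r* (27506 WT and 30125 FRβ KO counts), *Adgre1* (6640 and 7112) and *Itgam* (6870 and 6987) were abundant. Of all 8 macrophage markers 2 had an interval above 1, 4 below and 2 that holds 1, with *Lyz2* (304923 and 275618 counts, ratio 0.843) and *Fcgr1* (2314 and 1950, ratio 0.786) the lowest, and their summed level was 19562 CPM (WT) and 16999 CPM (FRβ KO). The summed level of the 5 plasmacytoid dendritic cell markers was 1.02 and 1.65 CPM with 3 at 0 in both, *Siglech* among them. The 7 conventional dendritic cell markers together had 41.7 CPM (WT) and 56.6 CPM (FRβ KO). Of this, *Ccr7* made up 13.1 and 24.1 CPM and *Clec9a* 12.7 and 17.0 CPM. None of the 7 was at 0, but *Flt3* (6 and 8 counts) and *Itgae* (11 and 13) had few reads. The 10 neutrophil markers had 55.6 and 48.7 CPM with 4 and 2 of them at 0. Of this, *S100a8* made up 35.0 and 20.4 CPM (ratio 0.582, 0.513 to 0.660) and *Csf3r* 19.3 and 27.1 CPM (ratio 1.40, 1.22 to 1.61). Of the 5 neutrophil markers with at least 10 counts 1 lay above 1, 1 below and 3 held 1.

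Of the 10 genes, *Cd14*, *Tlr1* and *Tlr2*, which serve the recognition of LPS and lipopeptides at the cell surface, had the highest KO/WT ratios, at 1.74, 1.52 and 1.30. *Tlr4* and *Tlr6*, which work beside them, had ratios of 1.03 and 1.02, and the endosomal receptors ranged from 0.969 for *Tlr9* to 1.16 for *Tlr7*. The whole counting interval lay above 1 for 5 of the 10 genes, beside 14.7% of the 14489 genes with at least 10 counts, and below 1 for 0 of them, beside 16.8%. Since these genes are abundant and their intervals narrow, the share among the 7681 genes with at least 500 counts, a limit chosen after the values were seen, is also given. It was 19.3% above 1 and 21.9% below. With scaling by total counts in place of TMM, 19.4% of all genes lay above 1 and 13.2% below, and 6 of the 10 lay above 1, the sixth being *Tlr8*. The comparison with all genes is not a neutral one, since the 10 genes were chosen with earlier results of these data known. The receptor gene *Tlr12*, which is not among the 10, lay below 1 (ratio 0.456, 0.333 to 0.617). In these bulk libraries, fewer cells of a type and less RNA per cell cannot be told apart.

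**Figure D1:**
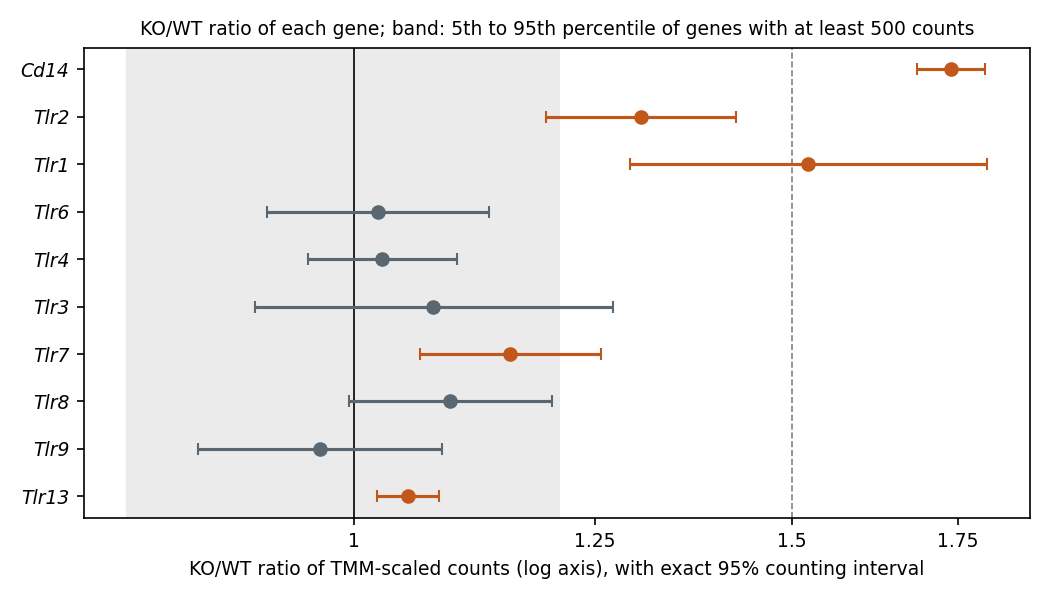
KO/WT ratio of TMM-scaled counts (log axis) of each gene, with the exact 95% counting interval as bars, 1 library per genotype. Orange points have their whole interval above 1, the dashed line marks 1.5-fold, and the grey band holds the 5th to the 95th percentile of genes with at least 500 counts (0.810 to 1.21). *Cd14*, *Tlr1* and *Tlr2* have point ratios to the right of the band, and the other 7 point ratios lie inside it.

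*Cd14*, a GPI-anchored protein that hands LPS to TLR4 and its partner MD-2, lies on chromosome 18 (ENSMUSG00000051439). It had 6017 WT and 11218 FRβ KO counts, a level of 323 CPM against 561 CPM. The KO/WT ratio was 1.74 (95% counting interval 1.68 to 1.79), and 95.4% of the genes tested had a lower ratio. *Cd14* was the 1 gene of the 10 with its whole interval above 1.5-fold, beside 0.939% of all genes tested and 0.26% of those with at least 500 counts.

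*Tlr4* (ENSMUSG00000039005, chromosome 4 of mm10 from 66827584 to 66930284), the signalling receptor for the LPS added to these cultures, had 1572 WT and 1731 FRβ KO counts. The ratio was 1.03 with an interval of 0.958 to 1.10, so no difference was detectable at this depth. *Ly96*, encoding MD-2, the subunit of the receptor that holds the lipid A of LPS, had 165 and 204 counts (ratio 1.15, 0.934 to 1.42). Within a library, *Cd14* had 3.83 counts for each *Tlr4* count in WT and 6.48 in FRβ KO. This comparison of one gene with another does not depend on how the libraries are scaled, and the *Cd14*/*Tlr4* quotient was 1.69 times as high in FRβ KO (exact interval 1.57 to 1.83). The *Ly96*/*Tlr4* quotient, at 1.12 times, had an interval that holds 1 (0.899 to 1.40).

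*Tlr2* (ENSMUSG00000027995, chromosome 3 from 83836272 to 83841767, minus strand) encodes the shared partner of the lipopeptide receptors. It had 870 WT and 1217 FRβ KO counts (46.7 and 60.9 CPM), with a ratio of 1.30 (1.19 to 1.42). *Tlr1* (ENSMUSG00000044827, chromosome 5 from 64924679 to 64933563), which pairs with TLR2 to bind triacylated lipopeptides, had 237 and 387 counts (12.7 and 19.4 CPM), with a ratio of 1.52 (1.29 to 1.80). Its neighbour *Tlr6* (ENSMUSG00000051498, chromosome 5 from 64952031 to 64960097), which pairs with TLR2 to bind diacylated lipopeptides, had 714 and 783 counts (38.3 and 39.2 CPM), with a ratio of 1.02 (0.923 to 1.13). The FRβ KO library thus had more *Tlr1* and *Tlr2* reads beyond counting error, while the interval of *Tlr6* holds 1.

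The 3 genes were also compared with each other within each library. *Tlr1* had 0.332 counts for each *Tlr6* count in WT and 0.494 in FRβ KO, a quotient 1.49 times as high in FRβ KO (1.23 to 1.81). *Tlr6* had 0.821 counts for each *Tlr2* count in WT and 0.643 in FRβ KO, or 0.784 times (0.684 to 0.898). The *Tlr1*/*Tlr2* quotient went from 0.272 to 0.318, and its interval of 0.968 to 1.41 holds 1. *Cd14* also gained on *Tlr2*, from 6.92 to 9.22 counts for each *Tlr2* count, or 1.33 times (1.21 to 1.46).

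*Tlr1* and *Tlr6* share part of their sequence, which bears on how reads are assigned to them. On the GENCODE M21 transcripts, 139 of the 2876 windows of 150 bases in the longest coding *Tlr1* transcript (4.83%) also occur in *Tlr6*, against 0 such windows shared with another gene for each of the other 8 genes. The longest identical run is 229 bases, lies in the coding sequence of both genes and is shown here with 30 bases on each side. Read 5′ to 3′ on the minus strand of GRCm38 (mm10), the stretches of 289 bases differ at the 2 bases written in capitals:
Tlr1, chr5:64925507-64925795: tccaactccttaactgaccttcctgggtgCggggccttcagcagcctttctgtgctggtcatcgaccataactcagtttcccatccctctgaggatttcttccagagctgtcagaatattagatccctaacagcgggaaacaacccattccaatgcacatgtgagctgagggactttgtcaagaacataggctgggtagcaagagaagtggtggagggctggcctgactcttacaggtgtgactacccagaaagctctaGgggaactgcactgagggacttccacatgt
Tlr6, chr5:64953798-64954086: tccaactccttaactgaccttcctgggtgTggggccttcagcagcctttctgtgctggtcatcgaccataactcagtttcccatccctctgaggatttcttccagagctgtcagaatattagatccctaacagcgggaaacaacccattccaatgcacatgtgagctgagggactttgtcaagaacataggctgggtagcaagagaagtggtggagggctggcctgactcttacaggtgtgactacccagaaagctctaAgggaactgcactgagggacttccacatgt
A read pair that falls wholly inside the run cannot be told apart between *Tlr1* and *Tlr6*, and how such reads were counted is not stated in the methods. The part of shared reads in the *Tlr1*/*Tlr6* quotient was not tested.

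The bases before the start sites of *Tlr2*, *Tlr1* and *Tlr6* are shown. The ratio of *Tlr6* differed beyond counting error from those of its neighbour *Tlr1* and its partner *Tlr2*. Those of *Tlr1* and *Tlr2* did not differ so from each other. The part of any motif in these ratios was not tested. The sequences come from the RefSeq promoter table (GRCm38.p6), which held 7 of the 10 genes in 9 windows of 250 bases before and 50 after a start site. Only bases that lie before the start site and in no GENCODE exon of the gene are printed, on the minus strand from 5′ to 3′, and the capitals mark matches to 4 motifs searched on both strands: the interferon-stimulated response element (GAAA, any 2 bases, GAAA), the gamma-activated site (TTC, any 3 bases, GAA) of IFNγ signalling, the κB site (GGG, any 5 bases, CC), and GAGGAA, the core bound by the macrophage factor PU.1.
Tlr2, chr3:83841768-83841858: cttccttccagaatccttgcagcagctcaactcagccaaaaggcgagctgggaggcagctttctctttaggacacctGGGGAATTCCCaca
Tlr1, upstream start, chr5:64933564-64933808: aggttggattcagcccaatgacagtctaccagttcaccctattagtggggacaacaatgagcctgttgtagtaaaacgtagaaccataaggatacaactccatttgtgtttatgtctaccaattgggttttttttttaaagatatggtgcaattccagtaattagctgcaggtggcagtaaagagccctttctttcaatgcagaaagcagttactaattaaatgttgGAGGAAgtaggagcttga
Tlr6, downstream start, chr5:64959167-64959416: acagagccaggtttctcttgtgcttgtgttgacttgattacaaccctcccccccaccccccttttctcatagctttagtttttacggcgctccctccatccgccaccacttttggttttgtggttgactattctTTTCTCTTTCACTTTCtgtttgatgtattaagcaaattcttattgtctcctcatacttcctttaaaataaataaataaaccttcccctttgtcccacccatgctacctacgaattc
Tlr6, upstream start, chr5:64960098-64960298: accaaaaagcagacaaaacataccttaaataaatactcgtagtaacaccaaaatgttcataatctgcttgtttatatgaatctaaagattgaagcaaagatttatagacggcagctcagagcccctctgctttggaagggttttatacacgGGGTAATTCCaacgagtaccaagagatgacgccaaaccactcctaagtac
In the whole windows, the κB letters occurred for *Tlr2*, *Tlr3* and *Tlr6*, in 3 of the 9 windows, and in 50.8% of all 32851 windows of the table. The *Tlr2* window held them in 5 overlapping matches at 2 places, the first of them beginning 173 bases before the start site. The interferon-stimulated response element letters occurred for 1 of the 7 genes, *Tlr6*, in 2 overlapping matches in 1 of the 9 windows, and in 3.44% of all windows. The gamma-activated site letters occurred for *Tlr1*, *Tlr6* and *Tlr8*, in 3 of the 9 windows, and in 8.30% of all windows. None of these matches lies in a printed stretch. That of *Tlr1* is in the window of its downstream start, and those of *Tlr6* begin at positions -3 and 7 from its upstream start site. The PU.1-type core occurred for *Tlr1*, *Tlr8*, *Tlr9* and *Tlr13*, in 4 of the 9 windows, and in 28.3% of all windows. A match is a string of letters and not a bound site.

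The endosomal receptors had ratios closer to 1 than those of *Cd14*, *Tlr1* and *Tlr2*, but not closer than those of *Tlr4* and *Tlr6*. *Tlr13* (ENSMUSG00000033777, chromosome X from 106143204 to 106160493), which recognises bacterial ribosomal RNA and is absent from humans, was the most abundant of the 9 receptor genes, with 8846 WT and 9978 FRβ KO counts. Its ratio was 1.05 (1.02 to 1.08), the narrowest interval among the receptors. *Tlr7* (ENSMUSG00000044583, chromosome X from 167304929 to 167330558), a receptor for single-stranded RNA, had 1011 and 1253 counts, with a ratio of 1.16 (1.06 to 1.26). These were the 2 endosomal genes with a whole interval above 1.

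*Tlr8* (ENSMUSG00000040522, chromosome X from 167242696 to 167264329), which lies next to *Tlr7* and also belongs to the family of RNA sensors, had 829 and 972 counts, with a ratio of 1.09 (0.995 to 1.20). *Tlr3* (ENSMUSG00000031639, chromosome 8 from 45395665 to 45411080), the receptor for double-stranded RNA that signals through TRIF, had 272 and 314 counts, with a ratio of 1.08 (0.912 to 1.27). *Tlr9* (ENSMUSG00000045322, chromosome 9 from 106222598 to 106226883), the receptor for CpG DNA, had 606 and 630 counts and was the 1 gene of the 10 with a lower point ratio, at 0.969 (0.866 to 1.09). The intervals of these 3 genes hold 1. An antisense gene model, *Gm45542*, overlaps *Tlr3* and had 0 counts in both libraries.

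Within the libraries, the *Tlr7*/*Tlr9* quotient was 1.67 in WT and 1.99 in FRβ KO, 1.19 times as high (1.03 to 1.37). The *Tlr7*/*Tlr8* quotient of these neighbours on chromosome X was 1.22 and 1.29, and its change of 1.06 times (0.932 to 1.20) was within counting error. *Unc93b1*, the chaperone of the endosomal receptors, had 13365 and 14864 counts (ratio 1.04, 1.01 to 1.06). The quotient of *Tlr7* to *Unc93b1* was 1.11 times as high in FRβ KO (1.02 to 1.22), and that of *Tlr9* to *Unc93b1* was 0.935 times (0.833 to 1.05). Of the 12 quotients chosen in all, 6 had an interval that excludes 1, and of all 45 pairs of the 10 genes, 24 did. Of the 24 pairs that include *Cd14*, *Tlr1* or *Tlr2*, 21 had such an interval, and of the 21 pairs without these genes 3 did. These genes have the highest ratios of the 10 in the same counts, so this split follows from that ranking and is no separate result. The share over pairs of all genes was not computed.

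TLR3 is known as a receptor of cross-presenting dendritic cells, and TLR7 and TLR9 as receptors of plasmacytoid dendritic cells and B cells. Markers of cross-presenting dendritic cells measured beside them included *Clec9a* (237 WT and 339 FRβ KO counts, ratio 1.33, 1.13 to 1.58) and *Xcr1* (76 and 94, ratio 1.15, 0.843 to 1.58). In the same list, *Batf3* (64 and 87, ratio 1.27, 0.907 to 1.78) and *Itgae* (11 and 13, ratio 1.10, 0.455 to 2.72) had intervals that hold 1. *Ccr7*, the migration receptor of mature dendritic cells, had 245 and 482 (ratio 1.83, 1.57 to 2.15), and *Zbtb46*, a transcription factor of conventional dendritic cells, was lower, with 138 and 109 (ratio 0.736, 0.567 to 0.954). Of the 7 conventional dendritic cell markers 2 lay above 1, 1 below and 4 held 1. Their part in the receptor ratios was not tested. *Siglech*, the defining marker of plasmacytoid dendritic cells, and the B cell marker *Ms4a1* had 0 counts in both libraries. Another plasmacytoid marker, *Ccr9*, had 16 WT and 29 FRβ KO counts. Of the 5 B cell markers 4 were at 0 in each library, and *Cd79a* had 17 and 10 counts.

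Levels of different genes were compared per kb of exon, as the union of a gene's GENCODE exons. In WT the order was *Cd14* (186 CPM per kb), *Tlr13* (110), *Tlr2* (15.5), *Tlr4* (15.2), *Tlr7* (13.3), *Tlr8* (12.4), *Tlr6* (10.3), *Tlr9* (9.35), *Tlr1* (3.80) and *Tlr3* (2.80). The Poisson intervals overlapped between *Tlr2* and *Tlr4*, between *Tlr7* and *Tlr8* and between *Tlr6* and *Tlr9*, so these neighbours could not be ordered. In FRβ KO the order of the 10 genes was the same, with *Cd14* at 324 CPM per kb, *Tlr13* at 116, *Tlr2* at 20.2, *Tlr1* at 5.79 and *Tlr3* at 3.02. There the intervals of *Tlr2* and *Tlr4* (15.6 CPM per kb) no longer overlapped, while those of *Tlr4* and *Tlr7* and of *Tlr6* and *Tlr9* did. With the length of the longest coding transcript instead, chosen after the values were seen, *Tlr4* (20.7 CPM per kb in WT and 21.2 in FRβ KO) stood before *Tlr2* (15.5 and 20.2), with intervals that did not overlap in WT and did in FRβ KO.

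**Figure D2:**
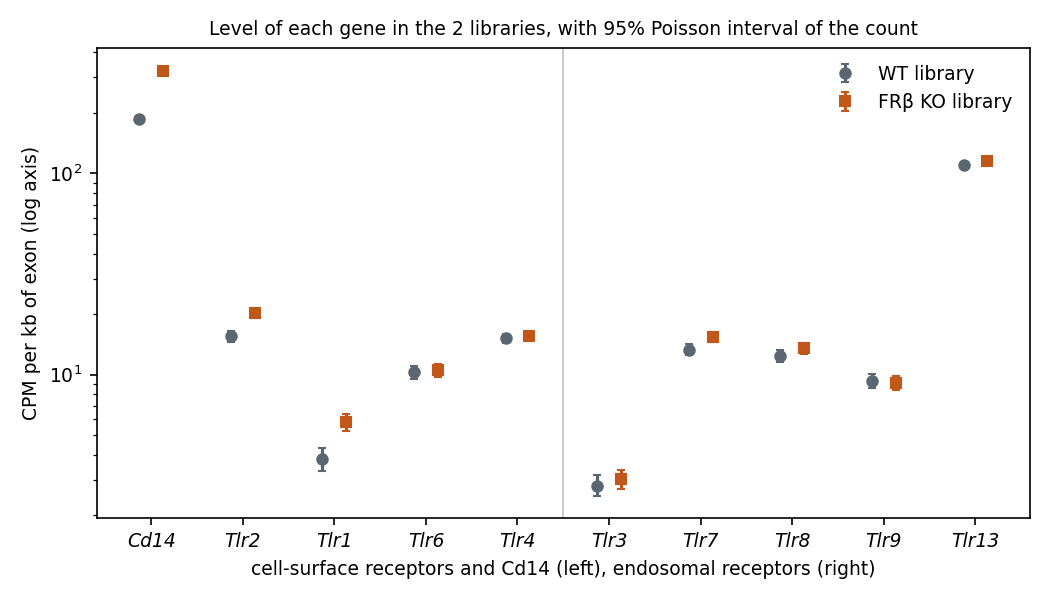
Level of each gene in CPM per kb of exon (log axis) in the WT library (grey circles) and the FRβ KO library (orange squares), with the 95% Poisson interval of the count as bars. *Cd14* and *Tlr13* stand well above the other 8 genes, and the gap between the libraries is widest for *Cd14* (186 and 324 CPM per kb) and *Tlr1* (3.80 and 5.79).

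The make-up of the reads over these 10 genes shifted accordingly. *Cd14* took 28.7% (exact interval 28.1% to 29.3%) of their 20974 reads in WT and 39.4% (38.8% to 40.0%) of their 28483 reads in FRβ KO, and *Tlr13* took 42.2% (41.5% to 42.8%) and 35.0% (34.5% to 35.6%). *Tlr13* thus had the most reads of the 10 genes in WT and *Cd14* in FRβ KO. Summed over the surface genes and *Cd14* the WT level was 505 CPM and the FRβ KO level 767 CPM, of which *Cd14* alone made up 323 and 561 CPM, and over the endosomal receptors 620 and 658 CPM.

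The median log2 KO/WT ratio of the 10 genes was 0.12, against -0.01 over all genes tested. It was 0.38 for the 5 surface genes and 0.11 for the 5 endosomal ones. The point ratio was above 1 for 9 of the 10 genes, beside 49% of all genes tested, and above 1.5 for *Cd14* and *Tlr1*, beside 8.16%. Among genes with at least 500 counts, 46 of 7681 (0.599%) had a point ratio above 1.5. A lower ratio than that of *Cd14* was found in 99.8% of these genes, a lower one than that of *Tlr1* in 99.5% and a lower one than that of *Tlr2* in 98.1%. For *Tlr7* the share was 90.8%, and for the others it lay between 39.1% (*Tlr9*) and 81.6% (*Tlr8*). The limit of 500 counts was chosen after the values were seen. It does not match genes by abundance, and *Tlr1* (237 WT and 387 FRβ KO counts) lies close to it. Over all genes tested the shares were 95.4% for *Cd14*, 93.0% for *Tlr1* and 88.5% for *Tlr2*.

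**Figure D3:**
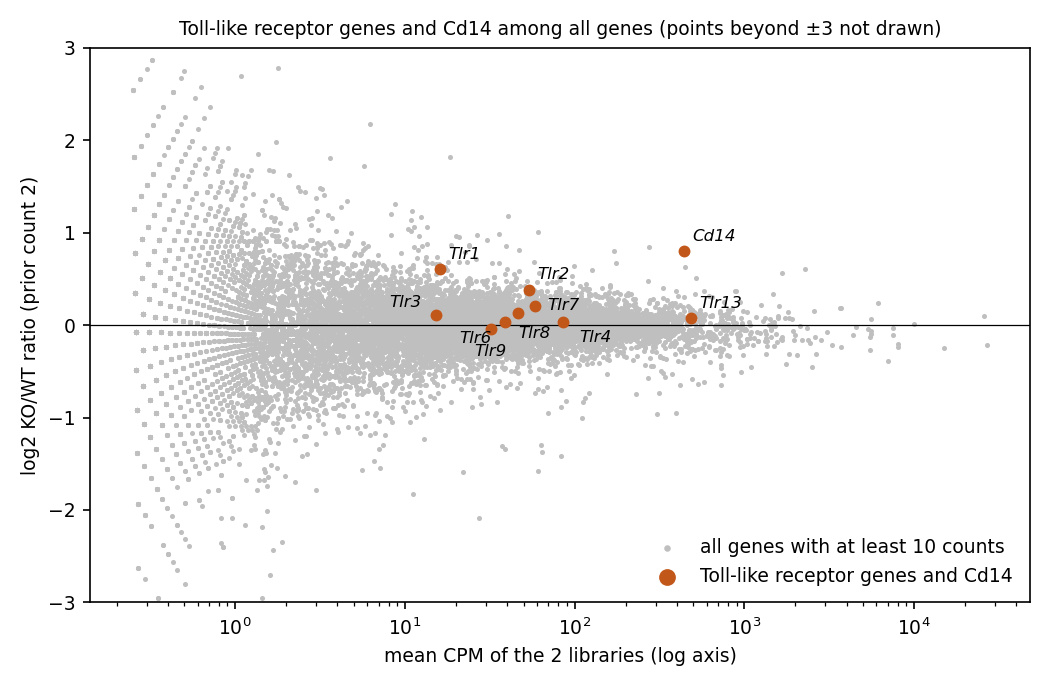
Log2 KO/WT ratio with a prior count of 2 (vertical axis) against the mean CPM of the libraries (log axis), for all 14489 genes with at least 10 counts (grey) and for the 10 genes (orange, named). The cloud narrows with abundance. *Cd14* (log2 ratio 0.80), *Tlr1* (0.60) and *Tlr2* (0.38) lie in its upper part, and the other 7 genes lie nearer its middle. No rank among genes of like abundance was computed.

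Of the 3 other mouse TLR genes, *Tlr12*, which encodes a receptor for the profilin of Toxoplasma, was lower in FRβ KO. It had 133 WT and 65 FRβ KO counts (ratio 0.456, 0.333 to 0.617), with its whole interval beyond 1.5-fold, beside 1.07% of all genes tested in that direction. Its partner *Tlr11* (8 and 6 counts) and the flagellin receptor gene *Tlr5* (6 and 14) had intervals that hold 1. So few reads of *Tlr5* and *Tlr11* were found that a difference of several fold was not detectable at this depth.

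The rest of the pathway was described with gene lists by role, each to be read beside the 14.7% of all genes above 1 and the 16.8% below. Of the 21 adaptors and kinases, 16 had an interval that holds 1, 5 lay above 1 and 0 below. *Myd88*, the adaptor of nearly all TLRs, had 1245 WT and 1332 FRβ KO counts (ratio 0.997, 0.923 to 1.08), and *Ticam1*, encoding TRIF, the adaptor of TLR3 and TLR4, had 1363 and 1407 (ratio 0.962, 0.893 to 1.04). The genes above 1 included *Tab1* (266 and 364 counts, ratio 1.28) and *Tab3* (434 and 546 counts, ratio 1.17), which encode partners of the kinase TAK1, and *Ikbkb* and *Chuk*, the catalytic subunits of the IκB kinase (ratios 1.12 and 1.11). The number of genes of this list with an interval that excludes 1 was 8 with scaling by total counts and 3 with a 99% interval. The median log2 KO/WT ratio over these 21 genes was 0.03, against -0.01 over all genes.

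Of 5 co-receptor and ligand transfer genes, 2 lay above 1 and 1 below, with a median log2 ratio of 0.09. *Ly86*, encoding MD-1, had 317 and 435 counts (ratio 1.28, 1.10 to 1.48), and *Cd180*, encoding its partner RP105, a TLR relative of the cell surface, had 4583 and 5221 (ratio 1.06, 1.02 to 1.11). *Cd36*, a scavenger receptor that assists TLR2 with TLR6, had 28073 and 27612 (ratio 0.917, 0.902 to 0.932). *Lbp*, the serum protein that extracts LPS for CD14, had 9 and 5 counts.

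Of 11 genes for folding and trafficking of the receptors, 4 lay above 1 and 3 below, with ratios from 0.868 to 1.16 and a median log2 ratio of 0.04. *Slc15a4*, an endolysosomal transporter needed for TLR7 and TLR9 signalling, had 913 and 1132 counts (ratio 1.16, 1.06 to 1.26), and *Tmed7*, a cargo receptor that carries TLR4 to the surface, had 3959 and 4794 (ratio 1.13, 1.08 to 1.18). *Atp6v0d2*, a proton pump subunit, had 5818 and 5419 (ratio 0.868, 0.837 to 0.901). Of 10 endosomal proteases and nucleases, which trim the receptors or their nucleic acid ligands, 4 lay below 1 and 1 above, with a median log2 ratio of -0.07. The lower ones included the cathepsin genes *Ctsl* (ratio 0.831, 0.811 to 0.852) and *Ctsb* (0.867, 0.861 to 0.873), and the higher one was *Pld4*, an exonuclease that degrades single-stranded ligands of TLR7 and TLR9 (2581 and 3730 counts, ratio 1.35, 1.28 to 1.42).

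Of 16 negative regulators, 14 had at least 10 counts, of which 1 lay above 1, 2 below and 11 held 1, with a median log2 ratio of 0.03. With scaling by total counts 5 in place of 3 had an interval that excludes 1. *Irak3*, encoding IRAK-M, a brake on MyD88 signalling that LPS induces, had 898 and 1232 counts (ratio 1.28, 1.17 to 1.40). *Cd200r1*, an inhibitory receptor of myeloid cells, had 1171 and 1045 (ratio 0.832, 0.765 to 0.905), and the inhibitory receptor gene *Lilrb4a* had a ratio of 0.964 (0.934 to 0.995). *Tnfaip3*, encoding the deubiquitinase A20, had 1483 and 1560 (ratio 0.981, 0.913 to 1.05).

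The targets of LPS signalling went both ways. Of 23 such genes 21 had at least 10 counts, with 8 above 1 and 8 below, and 3 had their whole interval above 1.5-fold, namely *Il1b* (ratio 2.02), *Il12b* (1.96) and *Ptgs2* (1.75, 1.66 to 1.84). The share above 1.5-fold over all genes tested was 0.939%. In the lower direction 0 of the 21 had their whole interval beyond 1.5-fold, beside 1.07% of all genes tested. *Il1rn* (0.674), *Socs3* (0.693) and *Tnf* (0.709) were lower. Over all 85 measured pathway genes other than the 10, 21 lay above 1 and 19 below, with a median log2 ratio of 0.01. With scaling by total counts the split was 29 above and 16 below.

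**Figure D4:**
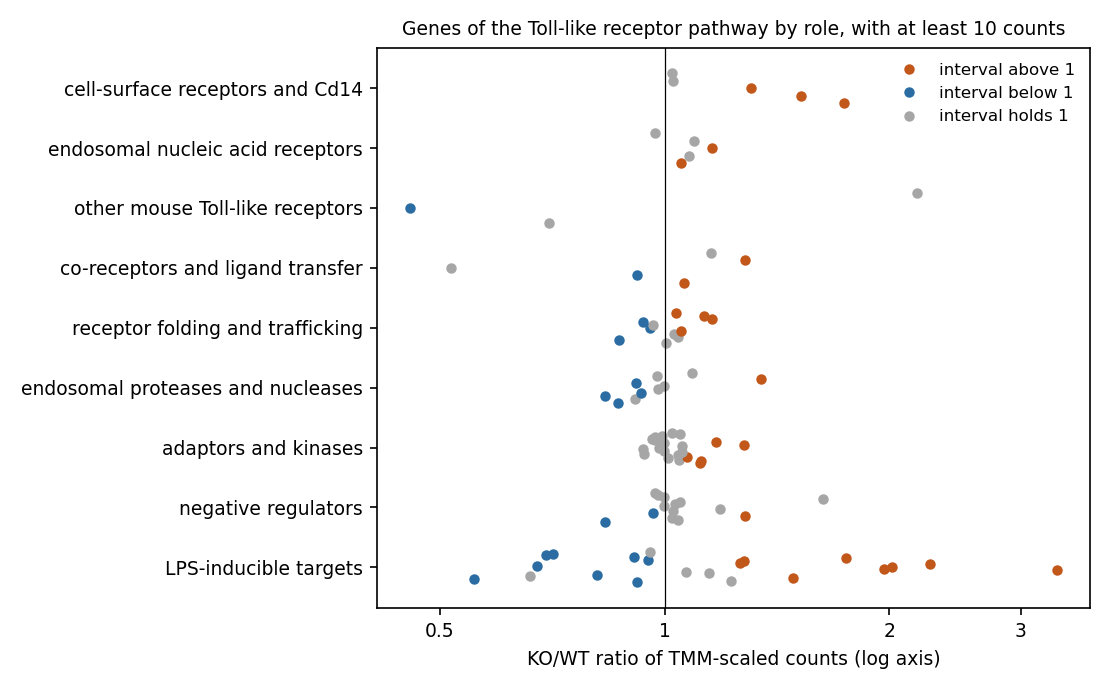
KO/WT ratio of TMM-scaled counts (log axis) of each gene with at least 10 counts, grouped by role in the TLR pathway, 1 library per genotype. Orange points have their whole counting interval above 1, blue points below 1, and grey points hold 1. Adaptors and kinases cluster near 1, while the LPS-inducible targets spread from 0.555 to 3.36. The genes at the ends of that spread have few counts (47 WT and 28 FRβ KO at 0.555, 5 and 18 at 3.36).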

How the data were processed

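RNA-seq was done on M1-like BMDMs, 1 library of pooled RNA per genotype. The authors deposited raw read counts by gene, which their provider made from 150 bp paired-end reads aligned to mm10 with HISAT2. How reads were counted, with which annotation and with or without strand, is not stated in the methods. The labels give regular RPMI medium and leave the FA_N of the sample names unexplained. No column was left out. GENCODE M21 (GRCm38, the same build as mm10) gave symbols, exons and transcripts for all but 37 of the 54532 identifiers. TMM factors came from edgeR 4.0.16 under R 4.3.3, and CPM use the sizes they give. KO/WT ratios have exact (Clopper-Pearson) 95% intervals, and quotients of genes exact conditional ones (Python 3.11.15, scipy 1.17.1). They cover counting error only, and reads carried no molecular identifiers. The intervals were tested on simulated Poisson counts. Such counts hold counting error only, so the run cannot bear on the spread between mice, cultures or libraries. Alternatives were other scalings (DESeq2 1.42.0 size factors among them), filters, prior counts and a 99% interval. The 10 genes and all lists were chosen with earlier results of these data known. Named pathway genes are up to 3 per list and side, with an interval that excludes 1 and at least 50 counts in 1 library, by the bound nearest to 1, plus the genes of the quotients, *Folr2*, *Myd88* and *Ticam1*; *Tlr5*, *Tlr11*, *Lbp*, *Tnfaip3*, *Tab3* and the cell type markers were named after their values were seen. One list held *Irg1*, an older name of *Acod1*, which was counted once.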

Additional observations from a re-analysis of the deposited data

How the results depend on the processing

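The filters and the 99% interval cannot move a ratio, and under the 3 other scalings each ratio of the 10 genes stayed within the 95% counting interval of its main value. Over these scalings the KO/WT ratio ranged from 1.74 to 1.78 for *Cd14*, from 1.52 to 1.56 for *Tlr1* and from 1.30 to 1.34 for *Tlr2*. By the point ratio, 2 genes passed 1.5-fold in place of 1, since the interval of *Tlr1* begins below 1.5. With DESeq2 size factors, the upper quartile or total counts as the scaling, 6 genes in place of 5 had a whole interval above 1. The number of all genes beyond 1.5-fold was 291, and 165 with a filter of 50 counts, 56 with one of 500 counts and 169 with a 99% interval; fewer genes were tested under the filters. Of the adaptors and kinases 8 (total counts) or 3 (99% interval) in place of 5 excluded 1, of the negative regulators 5 in place of 3 (total counts), and of the 3 other TLR genes 0 in place of 1 with the filter of 500 counts, which *Tlr12* does not pass. With a 99% interval 4 of the 12 quotients in place of 6 excluded 1, those lost being *Tlr7* to *Tlr9* and *Tlr7* to *Unc93b1*. No paired analysis was possible because each genotype has 1 library, and no library could be left out for the same reason. Depth limits *Tlr1* and *Tlr3* most, with 237 and 272 counts in WT.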
